A study of Homo sapiens with 24 samples.

Results

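The BTG and TOB genes encode a small family of antiproliferative proteins, and 5 of them, BTG1, BTG2, BTG3, TOB1 and TOB2, were followed here in ovarian cancer cells exposed to the duplex-prodrug 5-FdU-ECyd. The members were chosen by symbol, as these 5 of the 63299 genes in the deposited table, and all 5 passed the filter on low counts that left 20240 genes for testing. A2780 is a platinum-sensitive human ovarian cancer cell line, and A2780cis is its platinum-resistant isogenic counterpart. The 24 libraries fell into 8 groups of 3. Cells of each line received either fresh standard medium (untreated) or medium with 1 μM 5-FdU-ECyd (treated), and were harvested 6 h or 12 h later. 5-FdU-ECyd joins 2 antimetabolites, 5-FdU and ECyd, in 1 molecule. All groups grew in the same RPMI1640-based medium, and A2780cis alone was given cisplatin for a passage from time to time to keep its resistance. More cells were seeded per flask for A2780cis than for A2780, so effects of line and of seeding number cannot be told apart. The study describes the samples of a group as biological replicates. The labels do not say how their cultures were separated, and the p-values measure the spread between these libraries.

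Members of the family share an N-terminal BTG domain and are known to slow or stop the passage of cells into S phase. They have no enzyme activity of their own and act as adaptors. The BTG domain binds CNOT7 and CNOT8, the deadenylase subunits of the CCR4-NOT complex, and so links the proteins to the shortening of mRNA poly(A) tails. BTG2 is a long-established target gene of p53, TOB1 and TOB2 also bind the poly(A)-binding protein PABPC1, and BTG1 and BTG2 bind the arginine methyltransferase PRMT1. The mRNAs of several members are short-lived and respond within hours to growth factors or stress.

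The 5 genes are spread over 5 chromosomes (GRCh38, GENCODE release 44). BTG1 (ENSG00000133639.4) lies at chr12:92140278-92145846 on the minus strand, BTG2 (ENSG00000159388.5) at chr1:203305491-203309602 on the plus strand and BTG3 (ENSG00000154640.14) at chr21:17593653-17612945 on the minus strand. TOB1 (ENSG00000141232.4) lies at chr17:50862223-50867978 and TOB2 (ENSG00000183864.4) at chr22:41433494-41446801, both on the minus strand. BTG1, BTG2, TOB1 and TOB2 have 2 exons in their canonical transcripts and BTG3 has 5. All 5 genes are shorter than the median protein-coding gene: they span 4112 to 19293 bases, against a median of 27424 bases over 20046 genes. Their 3′UTRs differ widely, from 440 bases in BTG3 to 3802 bases in BTG1, with a median of 1064 bases over 19550 genes. The letters ATTTA, a core of AU-rich elements, occur 5, 2, 3, 4 and 3 times in the 3′UTRs of BTG1, BTG2, BTG3, TOB1 and TOB2. Per kilobase this is 6.82 in BTG3 and 5.28 in TOB1, against 1.32, 0.924 and 1.06 in BTG1, BTG2 and TOB2 and a median of 1.50 over all genes.

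The bases upstream of 3 members are shown because BTG2 and TOB1 responded to 5-FdU-ECyd in both lines while no call was made for TOB2. All 5 members had an entry among the RefSeq promoters (GRCh38.p14), and the stretches are the 250 bases before the RefSeq start. They are chr1:203305269-203305518 on the plus strand for BTG2, chr17:50866355-50866604 on the minus strand for TOB1 and chr22:41446802-41447051 on the minus strand for TOB2. RefSeq and GENCODE place some starts differently. The TOB1 stretch lies inside the GENCODE span of the gene given above, and the BTG2 stretch runs past the GENCODE start. Each is written 5′ to 3′, and capitals mark the letters TGACG (the core of a cAMP response element), CCAAT or TATAAA on either strand.
BTG2: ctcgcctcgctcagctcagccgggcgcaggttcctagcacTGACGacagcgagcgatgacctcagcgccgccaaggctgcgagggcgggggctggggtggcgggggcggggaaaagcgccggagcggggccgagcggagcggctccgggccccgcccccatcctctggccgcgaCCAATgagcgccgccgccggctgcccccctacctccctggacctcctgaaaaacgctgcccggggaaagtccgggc
TOB1: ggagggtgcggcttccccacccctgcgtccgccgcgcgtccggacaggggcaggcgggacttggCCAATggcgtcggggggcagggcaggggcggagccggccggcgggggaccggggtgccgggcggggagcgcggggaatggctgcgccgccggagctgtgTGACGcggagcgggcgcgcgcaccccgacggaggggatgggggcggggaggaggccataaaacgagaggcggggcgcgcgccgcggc
TOB2: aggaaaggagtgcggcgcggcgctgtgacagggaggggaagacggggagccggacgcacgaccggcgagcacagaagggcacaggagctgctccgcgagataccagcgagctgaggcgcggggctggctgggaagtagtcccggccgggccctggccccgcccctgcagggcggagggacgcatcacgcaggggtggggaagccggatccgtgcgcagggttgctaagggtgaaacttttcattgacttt
One TGACG starts 210 bases before the start of BTG2 and 1 lies 87 bases before that of TOB1. CCAAT starts at 76 bases in BTG2 and at 186 bases in TOB1. None of these letters stands in the TOB2 window. Both motifs are common: over 35116 RefSeq promoter windows (250 bases before to 50 after a start), 24.6% hold TGACG and 34.6% hold CCAAT. In the windows of the other members, BTG1 has 2 TGACG, 1 CCAAT and 1 TATAAA (11.5% of windows hold the last), and BTG3 has none of the 3. GGGCGG, present in 45.0% of windows, was found in all 5 genes. The full element TGACGTCA, which contains TGACG (1.85% of windows), the E-box CACGTG (7.26%), a p53 half-site (6.63%) and the CArG box (1.29%) were not found in the windows of the 5 genes. A second RefSeq start of TOB1, farther upstream and matching the GENCODE start, holds none of the letters searched. A match is a description of the letters, and nothing is drawn from it about a factor.

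Levels are given as TMM-normalized CPM, counts scaled to a common library size by edgeR, and comparisons as log2 FC with its SE from edgeR's quasi-likelihood test over all 20240 genes. Both are relative to the other RNA of a library, and no measure of total RNA per cell is given. The paper describes ECyd as an RNA-polymerase inhibitor. A rise or fall with treatment is therefore one of relative level, and amounts per cell were not tested. A gene was called when its Benjamini-Hochberg adjusted p was at most 0.05. Between 11077368 and 21901406 counts stood behind a library. BTG1 was the thinnest member, with 25 to 112 counts per library, while the other 4 had at least 157. In bulk RNA, a change in the share of cells with an mRNA and a change in its amount per cell cannot be told apart. The libraries held few counts of other cell types: leukocyte markers summed to at most 0.284 CPM and endothelial markers to at most 0.0853 CPM in any library. Epithelial and ovarian carcinoma markers were low in A2780, where 7 genes summed to 2.14 to 6.52 CPM, and reached 25.1 to 35.7 CPM in A2780cis, mostly from KRT18. Of these 7, EPCAM, KRT8 and KRT18 passed the filter, and CDH1, PAX8, WT1 and MUC16 did not. EPCAM, at 1 to 28 counts per library, went against the sum. Its untreated means were 0.675 and 0.946 CPM in A2780 at 6 h and 12 h, against 0.325 and 0.188 CPM in A2780cis. The 4 fibroblast-type genes were on the other side, with 46.5 to 80.8 CPM in A2780 against 1.66 to 4.05 CPM in A2780cis.

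BTG2 was the member with the largest response and TOB1 the next. In A2780, 3 of the 5 members were called higher after 6 h (BTG2, TOB1, BTG3) and 4 after 12 h (BTG1 in addition), against 29.4% and 54.8% of all genes called either way in the same comparisons. In A2780cis, 2 were called higher after 6 h (BTG2, TOB1) and 4 after 12 h (BTG1 and BTG3 in addition), against 30.7% and 59.9% of all genes called either way. No member was called lower. Of all genes, 13.4% and 26.1% were called lower in A2780 at 6 h and 12 h, and 16.3% and 28.9% in A2780cis. These shares are part of those called either way. The median log2 FC of the 5 members was 0.47 and 1.10 in A2780 and 0.45 and 1.05 in A2780cis at 6 h and 12 h, where the median of all genes tested lay between 0.00 and 0.04. Separate ranges were common: all treated libraries stood above all untreated ones for 21.1% and 33.0% of genes tested in A2780. In A2780cis these shares were 21.1% and 30.1% at 6 h and 12 h. Ranges without overlap in either direction made up 41.6% and 64.0% in A2780 and 43.2% and 59.6% in A2780cis.

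**Figure D1:**
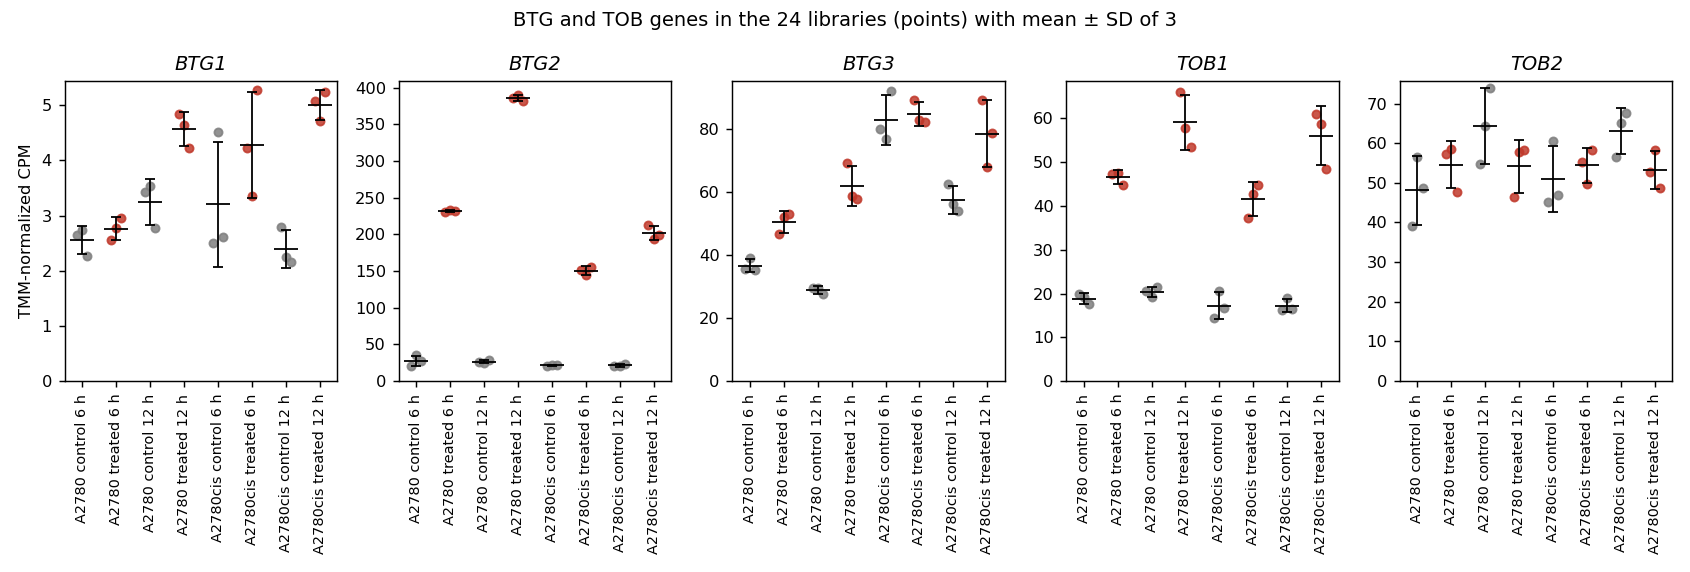
TMM-normalized CPM of the 5 members (1 panel each, vertical axes from 0) in the 24 libraries. Points are libraries (grey untreated, red treated), and bars give the mean and SD of 3. BTG2 and TOB1 separate treated from untreated libraries in every group pair, BTG3 is higher in untreated A2780cis than in untreated A2780, and TOB2 stays between 39.1 and 73.9 CPM throughout. Of all genes tested, 41.6% to 64.0% had no overlap in these treatment comparisons.

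BTG2 acts as a brake on the G1 to S transition and is induced by DNA damage. In untreated A2780 it read 21.0, 35.2 and 26.7 CPM at 6 h and 25.5, 25.0 and 29.2 CPM at 12 h. After 5-FdU-ECyd it read 231, 232 and 232 CPM at 6 h and 385, 390.3 and 382 CPM at 12 h. Every treated A2780 library was far above every untreated one, and the treated replicates lay close together at each time. The log2 FC was 3.08 ± 0.12 at 6 h (8.43-fold, 95% confidence interval 7.11 to 9.99, adjusted p = 1.87e-15) and 3.86 ± 0.12 at 12 h (14.5-fold, 12.2 to 17.2, adjusted p = 2.29e-18). Among 20240 genes this was the increase of rank 78 at 6 h and of rank 130 at 12 h.

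In A2780cis the treated levels of BTG2 lay lower than in A2780. Untreated libraries read 20.5, 21.7 and 22.2 CPM at 6 h and 20.6, 20.5 and 23.6 CPM at 12 h. Treated libraries read 151, 145 and 156 CPM at 6 h and 213, 194 and 199 CPM at 12 h. Treated and untreated A2780cis libraries were again far apart, and all 6 treated libraries of A2780cis stayed below all 6 of A2780. The log2 FC was 2.81 ± 0.12 at 6 h (7.02-fold, 95% confidence interval 5.91 to 8.33, adjusted p = 1.07e-14) and 3.23 ± 0.12 at 12 h (9.36-fold, 7.91 to 11.1, adjusted p = 9.78e-17). Its rank from the largest increase was 238 and 330.

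TOB1, which restrains growth and binds both the deadenylase complex and SMAD proteins, rose in both lines. Untreated A2780 read 19.9, 19.1 and 17.6 CPM at 6 h and 20.5, 19.2 and 21.4 CPM at 12 h. With 5-FdU-ECyd the values were 47.3, 47.6 and 44.8 CPM at 6 h and 65.9, 57.9 and 53.5 CPM at 12 h. Treated and untreated libraries did not overlap. In A2780cis the untreated values were 14.5, 20.7 and 16.6 CPM at 6 h and 16.3, 18.9 and 16.6 CPM at 12 h. The treated ones were 37.2, 42.6 and 44.9 CPM at 6 h and 61.0, 58.7 and 48.4 CPM at 12 h. Again no treated library reached down to an untreated one, and the treated ranges of the lines overlapped at both times. The log2 FC in A2780 was 1.30 ± 0.12 at 6 h (adjusted p = 1.70e-08) and 1.53 ± 0.12 at 12 h (adjusted p = 5.57e-11). In A2780cis it was 1.27 ± 0.12 at 6 h (adjusted p = 2.44e-08) and 1.70 ± 0.12 at 12 h (adjusted p = 7.49e-12). These are 2.47-, 2.90-, 2.42- and 3.25-fold increases in the same order.

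BTG3, a member known to bind and restrain the transcription factor E2F1, was higher in untreated A2780cis than in untreated A2780. Untreated A2780 read 35.5, 39.0 and 35.3 CPM at 6 h and 29.5, 29.7 and 27.6 CPM at 12 h. Treated A2780 read 46.7, 52.2 and 53.1 CPM at 6 h and 69.4, 58.8 and 57.9 CPM at 12 h. All treated A2780 libraries exceeded the untreated ones of their time. The log2 FC was 0.47 ± 0.11 at 6 h (adjusted p = 0.00151) and 1.10 ± 0.10 at 12 h (2.14-fold, adjusted p = 2.09e-09). In untreated A2780cis the values were already 80.0, 77.0 and 92.2 CPM at 6 h, and 62.7, 56.4 and 54.0 CPM at 12 h. With 5-FdU-ECyd they were 89.3, 82.9 and 82.4 CPM at 6 h and 89.4, 67.9 and 78.7 CPM at 12 h. Treated and untreated A2780cis libraries overlapped at 6 h and were separate at 12 h. The log2 FC was 0.03 ± 0.10 at 6 h (95% confidence interval −0.18 to 0.24, adjusted p = 0.872) and 0.45 ± 0.10 at 12 h (1.36-fold, adjusted p = 4.33e-04).

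BTG1, an antiproliferative gene best known from lymphoid cells, was expressed at a low level. In A2780 it read 2.66, 2.74 and 2.27 CPM untreated and 2.56, 2.78 and 2.96 CPM treated at 6 h. At 12 h it read 3.43, 3.53 and 2.77 CPM untreated and 4.83, 4.64 and 4.23 CPM treated. The groups overlapped at 6 h and not at 12 h. A2780cis read 2.50, 4.51 and 2.62 CPM untreated and 4.23, 3.36 and 5.28 CPM treated at 6 h. At 12 h it read 2.79, 2.25 and 2.16 CPM untreated and 5.08, 4.71 and 5.24 CPM treated. Replicates of A2780cis were scattered at 6 h, where the groups overlapped, and clearly apart at 12 h. The 12 h log2 FC was 1.05 ± 0.19 in A2780cis (2.08-fold, adjusted p = 3.74e-05) and 0.49 ± 0.19 in A2780 (1.41-fold, adjusted p = 0.0279). At 6 h it was 0.45 ± 0.20 (adjusted p = 0.0938) and 0.11 ± 0.22 (adjusted p = 0.745). Of these results, 2 turned on single libraries or on the setting. The A2780 call at 12 h was lost without the control library of replicate 3 (log2 FC 0.38), without treated replicate 1 (0.44) or 2 (0.48), with no filter (0.47, adjusted p = 0.0710) and in DESeq2's Wald test (0.49, adjusted p = 0.0616). At 6 h in A2780cis, leaving out the untreated library of replicate 2, the one at 4.51 CPM, raised the log2 FC to 0.76, past the threshold, as did leaving out treated replicate 2 (0.59) or scaling by library size alone (0.55, adjusted p = 0.0402).

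TOB2, the close relative of TOB1, gave no call with the drug. At 6 h, A2780 read 39.1, 56.6 and 48.6 CPM untreated and 57.4, 58.5 and 47.8 CPM treated. At 12 h the values were 54.7, 64.4 and 73.9 CPM untreated and 46.5, 57.7 and 58.4 CPM treated. The untreated and treated ranges overlapped at both times. In A2780cis the 6 h values were 45.2, 60.5 and 46.9 CPM untreated and 55.4, 49.6 and 58.3 CPM treated. The 12 h values were 56.4, 65.2 and 67.6 CPM untreated and 52.6, 58.3 and 48.7 CPM treated. Here too the ranges overlapped at both times. The log2 FC in A2780 was 0.18 ± 0.14 at 6 h and −0.25 ± 0.14 at 12 h, with a 95% confidence interval of −0.52 to 0.03 at 12 h. In A2780cis it was 0.10 ± 0.14 and −0.24 ± 0.14, the latter with an interval of −0.52 to 0.04. None of the 4 values passed the threshold, with adjusted p-values of 0.341, 0.129, 0.634 and 0.125. The sign went from positive at 6 h to negative at 12 h in both lines, and the 95% confidence intervals of all 4 values include 0. The A2780 value at 12 h passed the threshold without the untreated library of replicate 1 (−0.37), and the A2780cis one with no filter on low counts (−0.30, adjusted p = 0.0364).

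**Figure D2:**
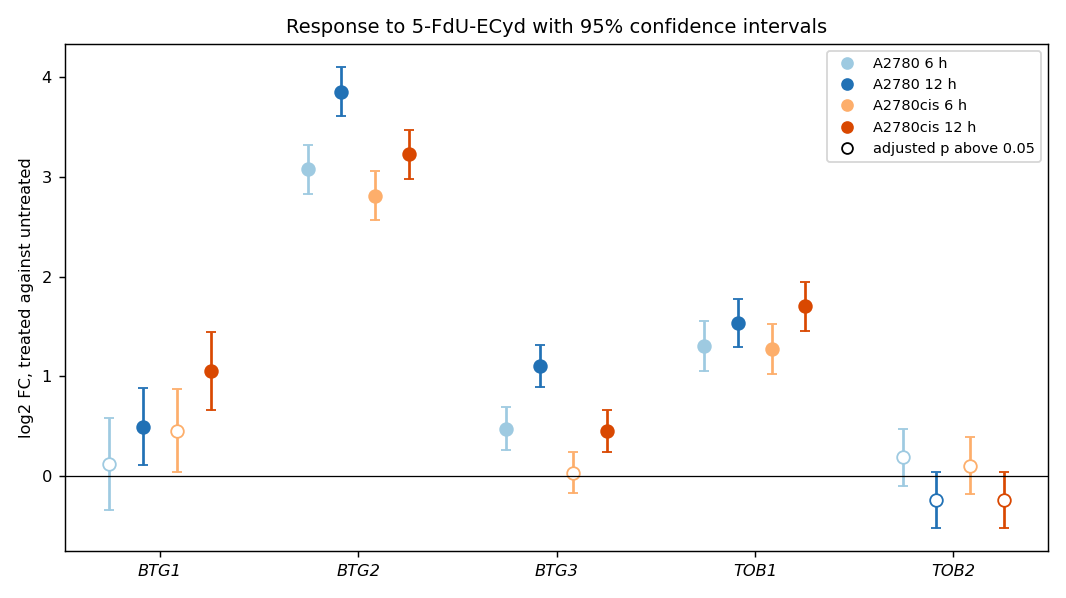
log2 FC of treated against untreated cells for the 5 members in A2780 (blue) and A2780cis (orange) at 6 h (light) and 12 h (dark), with 95% confidence intervals. Filled points have an adjusted p of at most 0.05. BTG2 lies between 2.81 and 3.86 and TOB1 between 1.27 and 1.70, whereas no TOB2 point is filled.

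Per kilobase of exon, the order of the members differed between untreated and treated cells. In untreated cells BTG3 and TOB2 held the top ranks: in A2780 at 6 h the levels were 15.9 FPKM for BTG3, 11.1 for TOB2, 10.0 for BTG2, 7.48 for TOB1 and 0.527 for BTG1, and at 12 h TOB2 (14.8) stood above BTG3 (12.6). The SDs of BTG2 and TOB2 (2.60 and 2.02 FPKM at 6 h) do not part those neighbours. In all 4 treated groups BTG2 came first, with 139.9 FPKM in A2780 and 73.3 FPKM in A2780cis at 12 h, followed by BTG3 (26.9 and 34.2), TOB1 (23.4 and 22.2), TOB2 (12.5 and 12.3) and BTG1 (0.941 and 1.03). BTG3 and TOB1 in treated A2780 at 12 h differed by little more than their SDs of 2.78 and 2.50 FPKM. BTG1 was the lowest member in every group. From its lowest to its highest group mean, BTG2 spanned 18.0-fold, TOB1 3.43-fold, BTG3 2.93-fold, BTG1 2.09-fold and TOB2 1.34-fold.

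Whether the 2 lines responded to a different extent was tested as the A2780cis log2 FC minus the A2780 log2 FC. At 12 h BTG2 and BTG3 responded less in A2780cis, and these 2 of 5 calls stand against 14.0% of all genes called lower. For BTG2 the difference was −0.63 ± 0.16 (95% confidence interval −0.95 to −0.31, adjusted p = 0.00508), and for BTG3 −0.65 ± 0.14 (−0.95 to −0.36, adjusted p = 0.00195). Neither call was lost under any alternative setting or any library left out. No difference was called for BTG1 (0.56 ± 0.27, interval 0.01 to 1.11, adjusted p = 0.133), TOB1 (0.17 ± 0.17, interval −0.17 to 0.51, adjusted p = 0.508) or TOB2 (0.00 ± 0.19, interval −0.39 to 0.40). At 6 h none of the 5 was called by edgeR or by DESeq2, against 3.07% of all genes called either way. The 6 h values were −0.44 ± 0.15 for BTG3 (interval −0.74 to −0.14, adjusted p = 0.102) and −0.27 ± 0.16 for BTG2 (interval −0.60 to 0.07, adjusted p = 0.466), the former the one member whose unadjusted p was under 0.05.

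**Figure D3:**
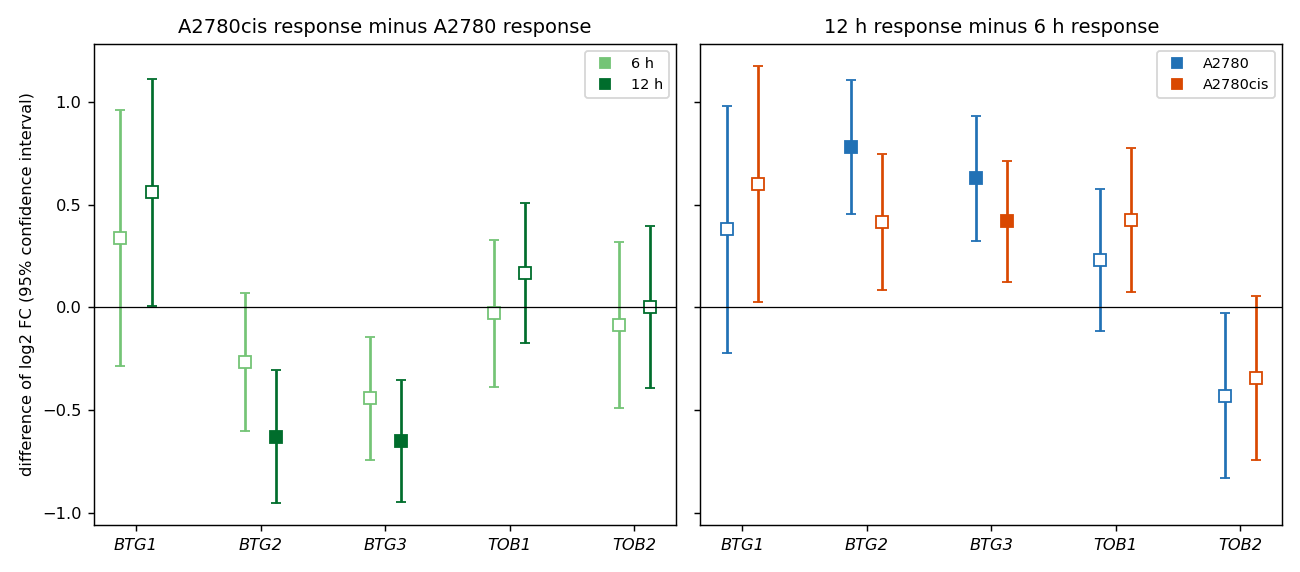
Left, the log2 FC in A2780cis minus that in A2780 at 6 h (light) and 12 h (dark). Right, the log2 FC at 12 h minus that at 6 h in A2780 (blue) and A2780cis (orange). Bars are 95% confidence intervals and filled squares have an adjusted p of at most 0.05, which on the left are BTG2 (−0.63) and BTG3 (−0.65) at 12 h.

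The growth of the response from 6 h to 12 h was tested in the same way. In A2780 it was called for BTG2 (0.78 ± 0.16, adjusted p = 9.74e-04) and BTG3 (0.63 ± 0.15, adjusted p = 0.00314), against 10.7% of all genes called higher. The remaining A2780 values were 0.38 ± 0.29 for BTG1, 0.23 ± 0.17 for TOB1 and −0.43 ± 0.19 for TOB2 (adjusted p = 0.113). In A2780cis only BTG3 passed (0.42 ± 0.14, adjusted p = 0.0332), against 10.3% of all genes, and BTG2 (0.42 ± 0.16, adjusted p = 0.0621), TOB1 (0.43 ± 0.17, adjusted p = 0.0696) and BTG1 (0.60 ± 0.28, adjusted p = 0.121) did not. The A2780cis call of BTG3 was lost in 7 of 12 fits that left out 1 library (range of the log2 value 0.25 to 0.51), namely without untreated replicate 3 or treated replicate 2 or 3 of 6 h and without untreated replicate 2 or 3 or treated replicate 1 or 3 of 12 h, with no filter (0.34, adjusted p = 0.192) and in a fit of the A2780cis libraries alone (0.40, adjusted p = 0.0726). BTG2 in A2780cis passed in that last fit (0.40, adjusted p = 0.0408), with scaling by library size alone (0.42, adjusted p = 0.0455) and in DESeq2 (0.42, adjusted p = 0.0333). TOB1 in A2780cis passed without untreated replicate 1 of 6 h (0.53), and TOB2 in A2780 passed as a decrease without untreated replicate 2 of 6 h (−0.57) or with no filter (−0.46, adjusted p = 0.0497).

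The levels behind these differences were followed over time within untreated and within treated cells. For BTG2 no shift with time was called in untreated cells (log2 FC −0.05 ± 0.12 in A2780 and 0.01 ± 0.12 in A2780cis), and from 6 h to 12 h of treatment it rose by 0.73 ± 0.11 in A2780 (adjusted p = 4.71e-06) and 0.42 ± 0.11 in A2780cis (adjusted p = 0.00174). BTG3 fell in untreated cells from 6 h to 12 h, by 0.34 ± 0.11 on the log2 scale in A2780 (adjusted p = 0.0211) and by 0.53 ± 0.10 in A2780cis (adjusted p = 3.37e-04). Between treated cells of 6 h and 12 h it rose by 0.29 ± 0.10 in A2780 (adjusted p = 0.0246) and was not called in A2780cis (−0.11 ± 0.10, adjusted p = 0.384). In A2780cis the log2 FC of BTG3 at 12 h went with a lower untreated level, 57.7 ± 4.48 CPM (SD, n = 3) against 83.1 ± 8.02 CPM at 6 h, beside treated levels of 78.7 ± 10.7 and 84.8 ± 3.86 CPM.

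In untreated cells over time, 2 of 5 members were called in A2780 (BTG3 lower, TOB2 higher) and 1 in A2780cis (BTG3 lower), against 26.9% and 39.9% of all genes called either way. TOB2 rose by 0.43 ± 0.14 in A2780 (adjusted p = 0.0250) and stood at 0.31 ± 0.14 in A2780cis (adjusted p = 0.0758). Without untreated A2780 replicate 1 of 6 h, or without replicate 3 of 12 h, both A2780 calls were lost (TOB2 0.29 and 0.31, BTG3 −0.36 and −0.31), without replicate 2 of 6 h that of BTG3 was lost (−0.29), and without replicate 2 of 12 h that of TOB2 (0.42). With no filter the A2780 call of BTG3 was lost (−0.31, adjusted p = 0.0783). TOB2 in A2780cis passed with library size alone (0.48), with no filter (0.36), in the fit of the compared libraries alone (0.39), and without A2780cis control replicate 2 of 6 h (0.45) or replicate 1 of 12 h (0.39). Among treated cells, 12 h exceeded 6 h for 4 members in A2780 (all but TOB2) and 2 in A2780cis (BTG2 and TOB1), against 22.3% and 24.2% of all genes. Those comparisons were added after the levels of BTG3 and TOB2 had been seen. TOB1 rose by 0.34 ± 0.11 in A2780 (adjusted p = 0.0184) and by 0.43 ± 0.11 in A2780cis (adjusted p = 0.00307), and BTG1 by 0.72 ± 0.20 in A2780 (adjusted p = 0.00548). Without treated A2780 replicate 1 of 12 h, BTG3 (0.19) and TOB1 (0.24) lost their A2780 calls. TOB1 also lost it without treated replicate 3 of 6 h (0.31), and BTG3 without treated replicate 1 of 6 h (0.23) or with no filter (0.29, adjusted p = 0.0607).

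Among untreated cells the platinum-resistant line differed from the sensitive one most in BTG3. The A2780cis log2 FC of BTG3 over A2780 was 1.18 ± 0.11 at 6 h (2.27-fold, adjusted p = 3.62e-10) and 1.00 ± 0.10 at 12 h (1.99-fold, adjusted p = 6.43e-09), with no overlap between the lines at either time. Of all genes tested, 52.2% and 62.3% had no overlap between the untreated lines at 6 h and 12 h. BTG2 was lower in A2780cis by 0.36 ± 0.12 at 6 h (adjusted p = 0.0185), where the ranges of the lines overlapped, and by 0.30 ± 0.12 at 12 h (adjusted p = 0.0314). So 2 of 5 members were called at each time, against 47.9% and 52.9% of all genes called either way. The BTG2 call was lost at 6 h without A2780 replicate 2 (−0.15) or A2780cis replicate 1 (−0.33), and at 12 h without A2780 replicate 3 (−0.23) or A2780cis replicates 1 or 2 (−0.27 each). TOB1 (−0.13 ± 0.13 and −0.24 ± 0.12) and TOB2 (0.08 ± 0.14 and −0.03 ± 0.14) were not called, nor was BTG1 (0.31 ± 0.22 and −0.42 ± 0.20). BTG1 passed as lower in A2780cis at 12 h without A2780 replicate 3 (−0.53) or A2780cis replicate 1 (−0.55) and in a fit of these libraries alone (−0.44, adjusted p = 0.0458). The epithelial and fibroblast-type marker sums given above moved between the same libraries as BTG3, and their part in the difference was not tested.

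Genes of deadenylation and poly(A) binding, enzymes and other proteins alike, were mostly called lower or not called. A list of 17 deadenylase and poly(A)-binding genes was fully measured. In A2780, 5 were called lower at 6 h and 8 at 12 h, against 13.4% and 26.1% of all genes called lower, and in A2780cis 11 and 13, against 16.3% and 28.9%. The 1 gene called higher was PAN2, a catalytic subunit of the PAN2-PAN3 deadenylase (0.27, adjusted p = 0.0361, A2780cis at 12 h). The list's median log2 FC was −0.16 and −0.23 in A2780 and −0.28 and −0.56 in A2780cis at 6 h and 12 h, against medians of all genes between 0.00 and 0.04.

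CNOT7, which the BTG domain contacts directly, read 186.9 ± 7.08 CPM (SD, n = 3) in untreated and 127 ± 15.9 CPM in treated A2780 at 12 h, and 169 ± 18.2 and 103 ± 17.3 CPM in A2780cis. It fell by 0.56 in A2780 (adjusted p = 9.47e-05) and by 0.71 in A2780cis (adjusted p = 3.70e-06) on the log2 scale. Its paralog CNOT8 was not called in any of the 4 comparisons, with log2 FC values of 0.02 to 0.14. CNOT1, the scaffold of the CCR4-NOT complex, had the lowest log2 FC of the list at 12 h in both lines, −1.50 in A2780 (adjusted p = 1.57e-11) and −1.72 in A2780cis (adjusted p = 1.20e-12). PABPC1, the cytoplasmic poly(A)-binding protein that TOB1 and TOB2 contact, fell by 0.53 (adjusted p = 9.01e-05) and 0.73 (adjusted p = 1.03e-06) at 12 h. No difference between the lines was called for CNOT7, CNOT8 or PABPC1 at 12 h (A2780cis minus A2780 −0.15, 0.05 and −0.20).

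**Figure D4:**
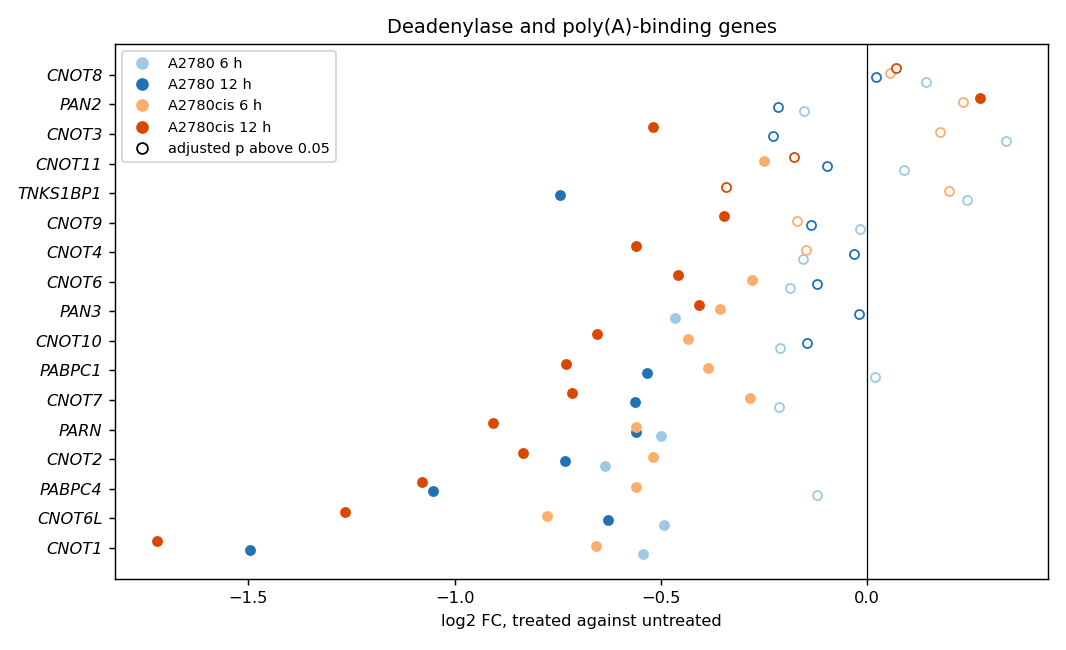
log2 FC of treated against untreated cells (horizontal axis) for the 17 deadenylase and poly(A)-binding genes, ordered by their values, in A2780 (blue) and A2780cis (orange) at 6 h (light) and 12 h (dark). Open points have an adjusted p above 0.05. All 4 CNOT8 points are open and lie at or above 0, and CNOT1 reaches −1.72.

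A list of 7 partners and targets in transcription was fully tested. In A2780 none was called at 6 h, against 29.4% of all genes called either way, and at 12 h 1 was called higher and 2 lower, against 54.8% called either way. In A2780cis 3 were called lower at 6 h and 4 at 12 h, against 16.3% and 28.9% of all genes called lower. The list's median log2 FC was 0.03 and −0.11 in A2780 and −0.35 and −0.33 in A2780cis at 6 h and 12 h. PRMT1, the methyltransferase bound by BTG1 and BTG2, stood at 0.30 at 6 h (adjusted p = 0.119) and fell by 0.86 at 12 h in A2780 (adjusted p = 1.46e-05), with values of 0.37 (adjusted p = 0.0501) and −0.32 (adjusted p = 0.0539) in A2780cis. CCND1, the G1 cyclin that BTG2 and TOB1 are reported to hold down, was not called in A2780 (0.03 and −0.03) and was lower in A2780cis, by 0.74 at 6 h (adjusted p = 1.01e-04) and 0.33 at 12 h (adjusted p = 0.0296). The difference between the lines in CCND1 was called at 6 h (−0.77, adjusted p = 0.0161) and not at 12 h (−0.30, adjusted p = 0.247). Untreated A2780cis libraries were scattered in CCND1 at 6 h, at 211 ± 52.0 CPM (SD, n = 3) with a range of 169 to 269 CPM. Fits without 1 library were run for the members and not for CCND1. SMAD5, a mediator of BMP signalling, was the gene called higher (0.71 in A2780 at 12 h, adjusted p = 8.15e-05), and SMAD4, the common partner of SMAD proteins, was lower in A2780cis (−0.35 at 6 h, −0.95 at 12 h).

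Across the 24 libraries the gene most like BTG2 was ZNF79, a zinc-finger gene (Pearson r = 0.987 on log2 CPM among 12518 genes whose mean log2 CPM reached 2), followed by TOB1 (0.975) and EDA2R, a TNF receptor family member known as a p53 target (0.973). TOB1 had ZNF79 (0.977), BTG2 (0.975) and the stress kinase PLK3 (0.974) next to it. BTG3 was followed most closely by KLHL2 (0.971), PLK2 (0.969) and RNF19A (0.960), BTG1 by KDSR (0.839), a lncRNA without a symbol (ENSG00000236723, 0.834) and the mitochondrial gene MT-ND4 (0.833), and TOB2 by SF3B4 (0.918), BAG6 (0.908) and ACTN4 (0.886). These values describe libraries that share line, time and treatment, and those of BTG2 and TOB1 form a treated and an untreated cluster, and the values over all libraries include the step between the clusters. Between BTG2 and TOB1, r was 0.690 within the 12 treated and 0.399 within the 12 untreated libraries. TOB2 correlated with no other member above −0.03 (range −0.26 to −0.03).

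**Figure D5:**
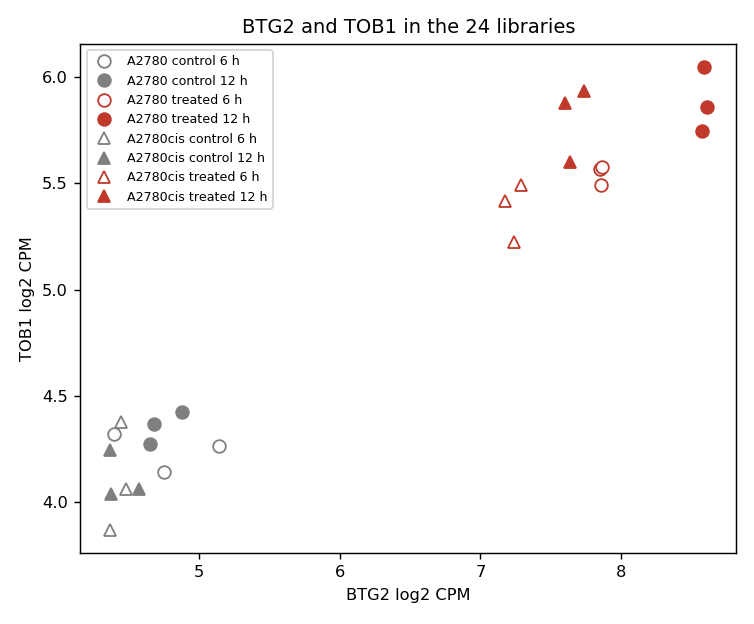
log2 CPM of TOB1 (vertical) against BTG2 (horizontal) in the 24 libraries, circles A2780 and triangles A2780cis, open 6 h and filled 12 h, grey untreated and red treated. The treated libraries form a cluster at higher values of both genes, with A2780 at 12 h farthest along the BTG2 axis.

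Loci that could share reads with the members held few counts. The strand setting of the counting is not given in the sources used here, and reads over several genes were allowed. BTG3-AS1 overlaps 326 bases (14.2%) of the exonic length of BTG3 on the opposite strand and held 9 to 69 counts, against 388 to 1748 for BTG3. It rose with treatment at 12 h in both lines (log2 FC 1.22 in A2780 and 1.08 in A2780cis, adjusted p = 4.78e-04 and 6.42e-04). TOB1-AS1 overlaps 281 bases (11.2%) of TOB1 and held 1 to 22 counts, against at least 157 for TOB1. BTG1-DT overlaps 274 bases (5.64%) of BTG1 on the opposite strand and had at most 4 counts. LINC01619 lies on the same strand as BTG1 over 10.4% of its exonic length and had at most 1 count in a library. The processed pseudogenes BTG1P1, BTG3P1 and TOB2P1 held at most 5, 0 and 1 counts. TOB2 was the member whose counts were not whole, in 12 of 24 libraries, by at most 0.5 of a count.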

How the data were processed

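Whole transcriptome RNA (TruSeq Stranded Total RNA libraries, NextSeq500) was analysed from the table that the authors deposited. Its values are expected counts, not normalized: per the labels and the paper's methods, reads were trimmed with Trimmomatic, aligned with STAR 2.5.2b to GRCh38 (patch 7) and counted by featureCounts, with a fraction for each of up to 100 positions of a read and with reads over several genes allowed. Between 9.50% and 12.8% of a library's entries are not whole. Reads are single per the labels but paired-end in the paper.

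Counts were rounded and tested in R 4.3.3 with edgeR 4.0.16 (filterByExpr, minimum count 10 and total 15, TMM, quasi-likelihood test, 1 coefficient for each of 8 groups over 24 libraries, 16 residual degrees of freedom, no covariate). All adjusted p-values are two-sided, from that test with Benjamini-Hochberg adjustment over 20240 genes, with a threshold of 0.05. Each SE was taken as |log2 FC| over the root of F. FPKM was computed from CPM with exon lengths of GENCODE release 44, which matched 56948 of 63299 IDs, and the authors' annotation was an earlier one, so lengths can differ. log2 CPM used a prior count of 2. As alternatives, normalization used the size factors of DESeq2 or library size alone, the filter or the rounding was dropped, replicate numbers entered as a block, compared libraries were fitted alone, the Wald test of DESeq2 1.42.0 was run, and each library was left out in turn. No 2 libraries agreed within sampling noise. The procedure was tested on simulated data.

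The genes named are the members, their related and overlapping loci, BTG4, members of the 2 fixed lists and of the marker lists, and the 3 genes most like each member. The members and lists were chosen with earlier results of these data known. Promoter sequences came from RefSeq (GRCh38.p14). Figures were drawn with Python 3.11.15 and matplotlib 3.10.9.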

Additional observations from a re-analysis of the deposited data

Results flagged for a closer look

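The response to 5-FdU-ECyd differed between the lines for 2 members at 12 h by a test of the difference itself. It was smaller in A2780cis than in A2780 for BTG2, by −0.63 on the log2 scale (log2 FC 3.23 against 3.86), and for BTG3, by −0.65 (0.45 against 1.10), both past the threshold of edgeR's quasi-likelihood test. The BTG3 level was higher in untreated A2780cis than in untreated A2780, and its part in the smaller log2 FC was not tested.

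The response also differed between the times for 2 members. From 6 h to 12 h the log2 FC grew by 0.78 for BTG2 and by 0.63 for BTG3 in A2780. Behind the BTG3 value, the untreated A2780 level fell by 0.34 and the treated level rose by 0.29 on the log2 scale. Both of these calls were lost in some fits without 1 library. In A2780cis the log2 FC grew by 0.42 for BTG3, a call lost in 7 of 12 fits without 1 library. Treated levels of BTG3 in that line were not called different between 6 h and 12 h.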

How the results depend on the processing

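For the named members, 459 of 490 values under the other settings and 477 of 540 with 1 library left out kept both direction and side of the threshold. The treatment calls of BTG2 and TOB1 in every comparison, of BTG3 in A2780 and in A2780cis at 12 h and of BTG1 in A2780cis at 12 h, and the 12 h line differences of BTG2 and BTG3, held under every alternative run. The number of members whose response grew in A2780cis, 1 of 5, was 2 with library size alone and in DESeq2, and 0 with no filter. Untreated 12 h against 6 h in A2780cis, 1 of 5, gave 2 with library size alone, with no filter, with the replicate block and in the compared libraries alone, in each case by adding TOB2. In A2780 it gave 1 in place of 2 with no filter. With 1 library left out, the counts ran from 0 to 2 for the growth in A2780cis, 0 to 2 and 1 to 2 for untreated cells over time in A2780 and A2780cis, 1 to 2 for the untreated line difference at each time, and 2 to 4 for treated A2780 over time. They also ran from 2 to 3 for the growth in A2780. For treated against untreated cells they ran from 3 to 5 in A2780 at 12 h and 2 to 3 in A2780cis at 6 h. They stayed at 3 in A2780 at 6 h and at 4 in A2780cis at 12 h. The cause of these shifts was not tested.

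Every reversal concerned a value that was not called, the one farthest from 0 being the untreated line difference of BTG1 at 6 h (0.31). The 12 h line difference of TOB2 was −0.0061 with size factors as in DESeq2, −0.11 with library size alone, −0.024 with no filter and −0.014 in DESeq2. The 6 h line difference of TOB1 was 0.0026 with library size alone and 0.031 in the compared libraries alone. Untreated A2780 over time gave 0.031 for BTG2 with library size alone. The untreated line difference of TOB2 at 6 h was −0.010 with library size alone and −0.0032 in the compared libraries alone. Treated 12 h against 6 h gave, with library size alone, 0.22 and 0.15 for TOB2 in A2780 and A2780cis and 0.067 for BTG3 in A2780cis, and in the compared libraries alone 0.023 and 0.00094 for TOB2. With 1 library left out, the ranges that crossed 0 were −0.00064 to 0.46 for BTG1 and −0.055 to 0.22 for TOB2 in the untreated line difference at 6 h, −0.12 to 0.082 for TOB2 at 12 h, −0.22 to 0.16 and −0.061 to 0.043 for BTG2 in untreated A2780 and A2780cis over time, −0.11 to 0.15 for TOB1 in untreated A2780cis over time, −0.025 to 0.11 for BTG3 treated against untreated in A2780cis at 6 h, −0.14 to 0.11 for TOB1 and −0.22 to 0.054 for TOB2 in the 6 h line difference, −0.11 to 0.094 for TOB2 in that of 12 h, and −0.096 to 0.075 and −0.11 to 0.039 for TOB2 in treated A2780 and A2780cis over time. With library size alone, the median over all genes lay at 0.10 to 0.24 in the 4 treatment comparisons.

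No general pairing by replicate number was seen: of 12 same-numbered pairs of groups, 1 had a correlation of deviations over 0.1 (range −0.25 to 0.31), and 3 correlated best with their own number. With 3 replicates per group this check cannot exclude a pairing. With the replicate number as a block, 1 of 70 member values crossed the threshold, TOB2 in untreated A2780cis over time (0.31). Depth limits BTG1 most, at 25 to 112 counts per library.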

Other observations

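BTG4, a family gene known from oocytes and outside the 5 members, held 0 to 14 counts per library. Its mean level was 0.480 and 0.601 CPM in untreated and treated A2780 at 6 h and 0.283 and 0.625 CPM at 12 h, against at most 0.0399 CPM in any group of A2780cis. At these low counts BTG4 was called higher with treatment in A2780 at 12 h (log2 FC 1.11, adjusted p = 0.0377, edgeR's quasi-likelihood test). It was not called in the other treatment comparisons. The divergent transcript BTG2-DT begins near the start of BTG2 on the opposite strand without exonic overlap and held 0 to 18 counts. At 12 h its group means were 2.33 counts in untreated and 10.3 in treated A2780, and 1.33 and 5.00 counts in A2780cis. BTG2-DT did not pass the filter on low counts and was not tested. BTG1 was the member with matches to the Pumilio-type letters TGTANATA in its 3′UTR, 4 of them, where 25.4% of genes have at least 1.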
